A study of Mus musculus with 10 samples.

Results

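The genes described here encode the proteins of the small (40S) subunit of the cytosolic ribosome. They were chosen by symbol: every symbol made of Rps and a number, with any further letter or digit, together with Fau, and without the S6 kinase genes (Rps6k), Rps19bp1, Rps3a1 and Rps3a2. The rule found 33 genes among 14796 named genes of the deposited table, and it uses no measured value. Of the 33, 13 encode proteins of the head of the subunit, 16 proteins of its body and platform, and 4 are paralogues or copies (Rps27l, Rps27rt, Rps4l and Rps3a3). RefSeq lists Rps3a3 as a pseudogene and Rps4l as a transcribed pseudogene, so these symbols met the rule without being established ribosomal protein genes. Rps12, a head protein gene, was not analysed here.

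RNA sequencing of total RNA was carried out on mouse telencephalon, the part of the embryonic forebrain from which the cerebral cortex and basal ganglia arise, at embryonic day 12. The mutated gene, Polr1a, encodes a catalytic subunit of RNA polymerase I, which transcribes the ribosomal RNA precursor. Samples with titles starting Polr_2048 are called the null set here and comprised 2 wild-type samples and 2 samples labelled null. Those with titles starting Polr_2138 are called the missense set and comprised 3 wild-type samples and 3 samples labelled with the p.C1559F missense allele. No other allele or agent is named in the labels. The labels give neither the zygosity, nor the strain, nor what the title numbers mean, nor whether samples share a litter, so p-values measure only the spread between these samples. Mutants were compared with wild types from the same set only, and replicates were numbered in the order of the samples.

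Each 40S subunit carries 1 copy of each of its proteins on a single ribosomal RNA, the 18S, which RNA polymerase I makes as part of the precursor. The proteins are made in the cytoplasm, enter the nucleus and join the precursor while it is cut and folded, so their supply has to match that of ribosomal RNA. Their mRNAs belong to the TOP class, which opens with a C followed by a run of pyrimidines and is translated under the control of the mTOR pathway. Most ribosomal protein genes have processed pseudogenes, intronless copies of the mRNA that landed elsewhere in the genome. Loss of 1 copy of several of these genes, Rps19 first among them, causes the human anaemia named after Diamond and Blackfan.

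The starts of these genes were searched for such a run in the promoter sequences of RefSeq (build GRCm38.p6), in which 23 of the 33 genes had an entry. A run was counted where at least 6 consecutive C or T, opening with C, began within 10 bases of an annotated start on the gene's own strand. It was found in 15 of the 23 (65.2%), against 21.9% of 27025 genes with an entry. The 30 bases around the start, 15 before it and 15 from it on, are given for 3 genes with a run, which is in capitals, and for 2 without one in this window whose values the results below turn on.
Rps6, chr4:86857353-86857382, minus strand: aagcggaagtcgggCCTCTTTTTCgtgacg
Fau, chr19:6057932-6057961, plus strand: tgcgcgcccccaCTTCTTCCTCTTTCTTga
Rps15a, chr7:118116133-118116162, minus strand: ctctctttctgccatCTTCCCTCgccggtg
Rps13, chr7:116334176-116334205, minus strand: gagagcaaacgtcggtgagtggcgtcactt
Rps25, chr9:44407699-44407728, plus strand: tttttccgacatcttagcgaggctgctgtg
Rps13 and Rps15a had the largest positive changes in the missense samples, and 1 of them held the run at its annotated start. Both are on chromosome 7. So are other members, among them Rps3, Rps9, Rps16 and Rps19, whose missense changes were all below 0 (-0.298 to -0.03).

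Near-identical copies matter for reading these genes, because a short read from a shared stretch cannot be assigned to 1 of them. The coding sequence of each gene was aligned to the mouse transcripts of GENCODE M21 (GRCm38). Rps13-ps1, a processed pseudogene on chromosome 8, differed from Rps13 at 2 of 453 coding bases and was identical over a run of 410 bases. The stretch of coding bases 391 to 449 that holds both differences is shown with the differing bases in capitals, T411C and A429G, counted from the A of the start codon with the Rps13 base first.
Rps13: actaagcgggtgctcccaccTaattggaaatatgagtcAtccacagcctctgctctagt
Rps13-ps1: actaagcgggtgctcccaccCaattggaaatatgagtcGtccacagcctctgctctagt
A second listed pseudogene, Rps13-ps2 on chromosome 7, held no difference from the Rps13 coding sequence. Gm6472, a copy of Rps7, differed from it at 3 of 582 coding bases (T26G, G48A and G123T). Coding bases 6 to 68 show the first pair of these.
Rps7: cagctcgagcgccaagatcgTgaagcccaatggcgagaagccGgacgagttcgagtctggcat
Gm6472: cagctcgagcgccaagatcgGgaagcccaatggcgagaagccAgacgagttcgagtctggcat
Rps27rt, an intronless gene, matched the coding sequence of Rps27 at all 252 bases, and 6 copies of Rps15a in the annotation had no row in the deposited table. Values of members with such copies are therefore uncertain as measures of a single gene.

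The deposited values are log2 levels on a per-total scale with a floor at -3.16, and the sequencing depth behind them is unknown. Polr1a itself was listed at 5.38 and 5.38 in the null-set wild types and at 4.99 and 4.82 in the null samples. It was at 5.62, 5.51 and 5.64 in the missense-set wild types and at 5.09, 5.66 and 5.79 in the missense samples. Both null samples were below their wild types (log2 change -0.48, adjusted p = 0.563, limma with Benjamini-Hochberg adjustment over all genes), and missense and wild type overlapped. Marker lists were read as summed levels. All 10 telencephalon markers were above the floor in every sample. Their sum was 10.38 to 10.63 in null against 10.84 to 11.04 in wild type, and 10.53 to 10.77 in missense against 10.84 to 10.96. Singly, 7 were lower in null and 3 higher (log2 changes -1.77 to 0.22). In null 2 were lower at an adjusted p under 0.05 (limma), against 0.162% of all genes. In missense 8 were lower and 2 higher (-0.52 to 0.08), and 0 passed that test, against 0.0203%. Neuron markers summed to 11.59 to 11.73 in null against 11.87 to 12.04, and to 11.87 to 12.11 in missense against 12.11 to 12.16. Mesenchyme and meninges markers summed to 11.33 to 11.76 in null against 10.77 to 11, and overlapped in the missense set. Endothelium markers summed to 8.0 to 8.41 in null against 7.86 to 7.92, and they overlapped with wild type in missense, as did neural progenitor markers, which were at 12.24 to 12.3 in null against 12.35 to 12.38. Microglia and macrophage markers summed to 7.06 to 7.10 in null against 5.97 to 6.13, and to 6.83 to 7.07 in missense against 6.35 to 6.62. Erythroid markers, which cover cells that carry large amounts of globin mRNA, ranged from 12.4 to 13.11 over all samples. Of the 12 erythroid markers Klf1 was at the floor in at least 1 sample, and of the 11 microglia and macrophage markers Tyrobp was. The part of these marker differences in the results below was not tested. In bulk samples, fewer cells of a type and less RNA per cell cannot be told apart.

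No small-subunit gene passed an adjusted p of 0.05 in either mutant. In the null comparison 0 of 33 were called, against 0.162% of all genes (24 of 14796), and in the missense comparison 0 of 33, against 0.0203% (3 genes). At an unadjusted p under 0.05 there were 0 in the null comparison, where 8.32% of all genes stood, and 3 in the missense comparison, where 5.54% stood: Fau was lower, and Rps13 and Rps15a were higher. The median residual SD of the 33 was 0.211 on the log2 scale, against 0.222 over all genes. Their 95% intervals reached a median of 0.38 to either side of the change in the null comparison and 0.31 in the missense comparison. In each comparison the interval of 26 of the 33 lay within a change of 1, that is, a doubling or its inverse.

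**Figure D1:**
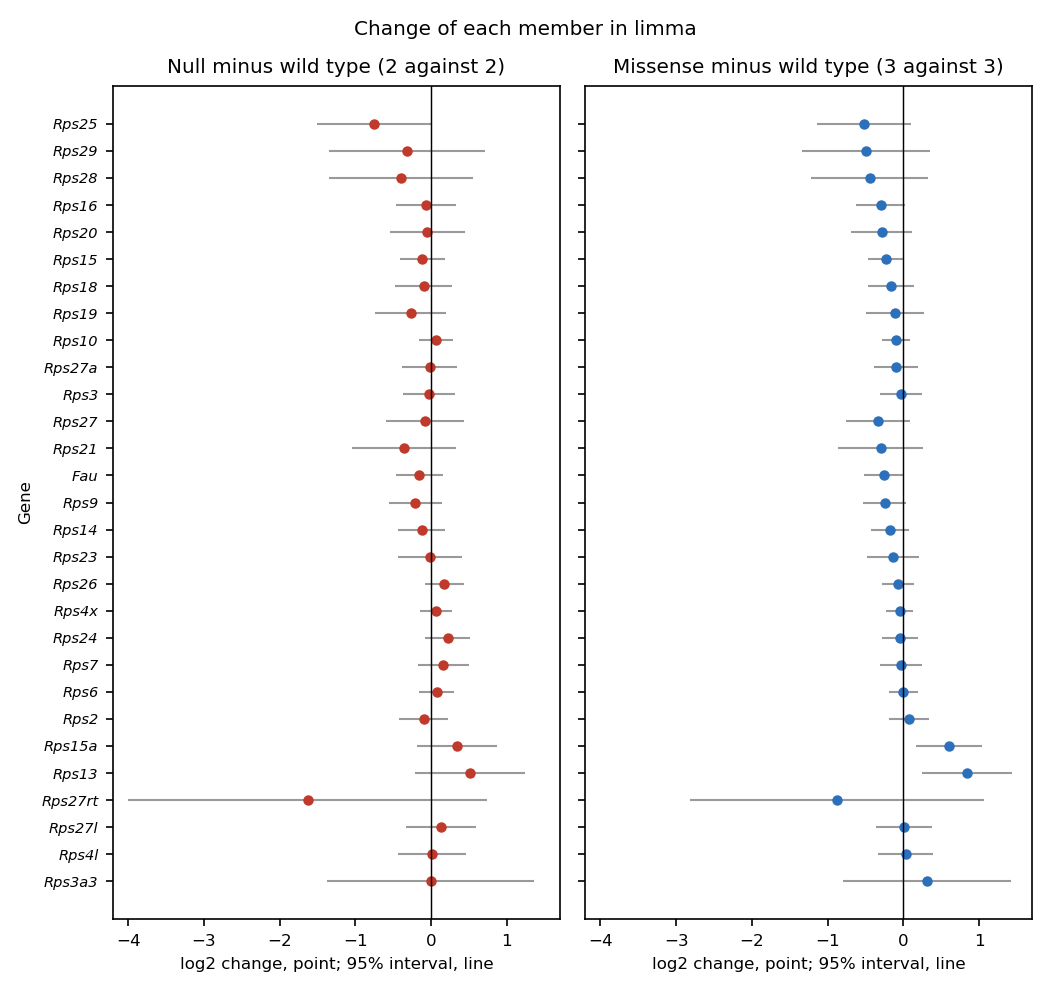
Change of small-subunit genes, mutant minus wild type of the same set, in log2 units (x axis), with the 95% interval from limma as a line; 29 of the 33 genes are shown, from head to body and platform to other members, top to bottom. Most points lie within 0.5 of 0, Rps13 and Rps15a lie to the right in both panels, and Rps27rt has the widest interval.

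Most changes were small and below 0. In the null samples 23 of 33 genes had a log2 change below 0, against 45.4% of all genes, with a median of -0.074 against 0.029 over all genes. In the missense samples 26 of 33 were below 0, against 46.0% of all genes, with a median of -0.127 against 0.018. The 21 genes below 0 in both comparisons compare with 25.4% of all genes. The null median and count moved with single samples. Without wild type 1 of the null set the null median was 0.173 and 3 of 33 were lower, and without wild type 2 it was -0.28. Without null 1 the median was 0.007 and 14 were lower, and without null 2 it was -0.147. In missense the median stayed below 0 with each sample left out. Without missense 2 the missense median was -0.077 and 20 of 33 were lower.

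In the null set the sample that stood apart was a wild type. Wild type 1 of the null set held the highest of the 10 values in 22 of 33 genes, against 11.6% of all genes. The median deviation of the 33 genes from the wild-type mean of the set was 0.229 in that sample and -0.229 in wild type 2. The null samples lay between them, at -0.147 and 0.007. In the missense set the 3 wild types were close together, at -0.011, 0.018 and 0.0. Missense 1 stood among them at -0.008, missense 3 at -0.1 and missense 2 at -0.276. Missense 2 held the lowest of the 10 values in 17 of 33 genes, against 9.69% of all genes, and lay below every wild type of its set in 27 of 33, where 25.9% of all genes did so.

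**Figure D2:**
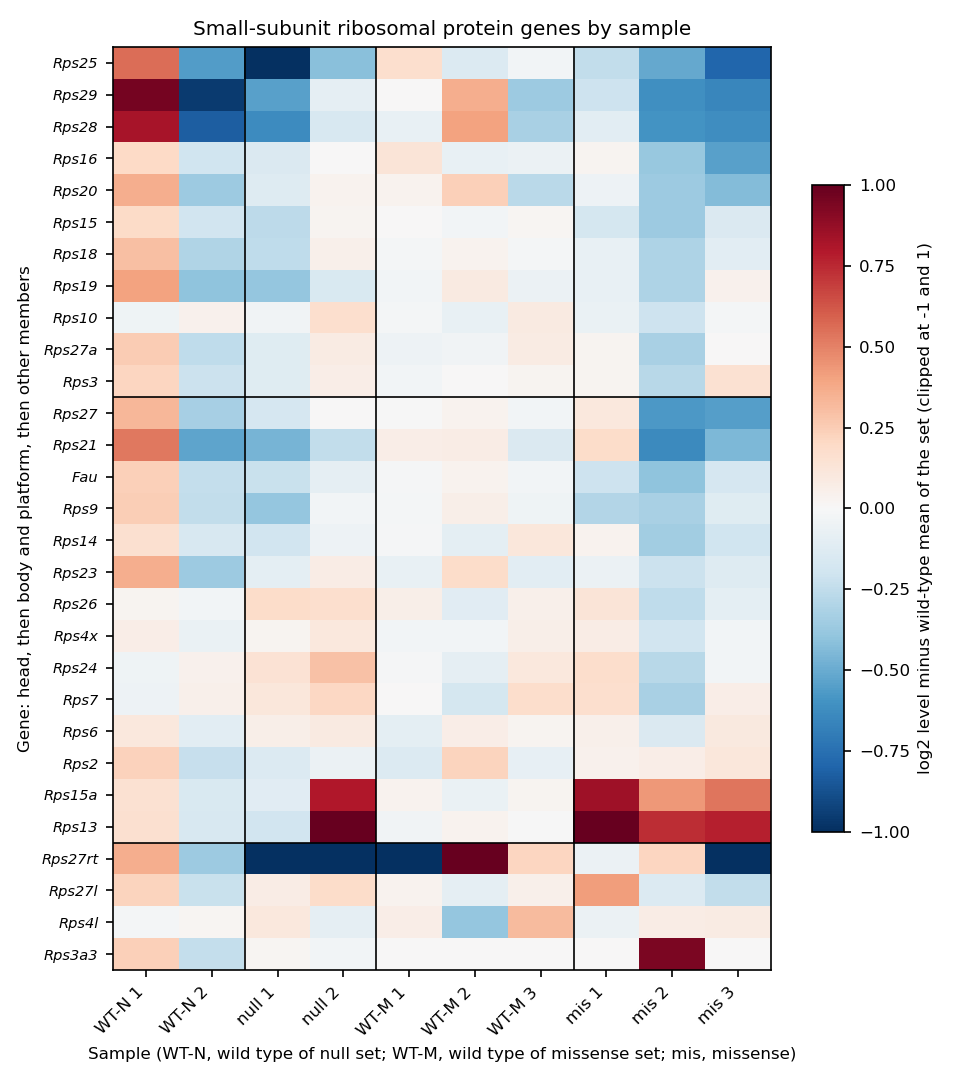
Level of 29 of the 33 genes (rows) in each sample (columns), as the log2 level minus the wild-type mean of the same set; red is higher, blue lower, and the colour is clipped at -1 and 1. Wild type 1 of the null set is red and wild type 2 blue in most rows, missense 2 is blue in most rows, and Rps13 and Rps15a are red in null 2 and in all 3 missense samples.

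Head proteins come first. They surround the decoding path and the exit site of tRNA. All 13 measured head genes had a log2 change below 0 in missense (median -0.162), against 46.0% of all genes. In null 12 of 13 did (median -0.101), against 45.4%, and none passed the adjusted test in either. The median deviation of the head genes was 0.303 and -0.303 in the null-set wild types, with null between them at -0.255 and 0.012. Rps25, a protein near the tRNA exit site that some viral mRNAs need to start translation, was the head gene with the largest change in both. Its levels were 5.41 and 4.29 in the null-set wild types and 3.76 and 4.44 in null. They were 4.58, 4.27 and 4.38 in the missense-set wild types and 4.16, 3.9 and 3.62 in missense. All 3 missense samples lay below all wild types of their set, while null and wild type overlapped. The log2 change was -0.753 ± 0.345 (SE, n = 2 and 2, limma adjusted p = 0.605) in null and -0.517 ± 0.282 (SE, n = 3 and 3, limma adjusted p = 0.902) in missense. With 1 sample left out, the null change was -0.196 without wild type 1, -1.311 without wild type 2 and -0.415 without null 1.

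Rps28 and Rps29, small proteins of the head, varied most within a group among the head genes. Rps28 was at 8.28 and 6.63 in the null-set wild types, 6.82 and 7.29 in null, 6.95, 7.43 and 6.7 in the missense-set wild types, and 6.92, 6.43 and 6.41 in missense. Rps29, a zinc-binding protein, was at 8.46 and 6.55, 6.97 and 7.42, 7.25, 7.6 and 6.88, and 7.03, 6.63 and 6.59 in the same order. For both genes the wild types of the null set bracketed the null samples, and the missense range overlapped that of wild type. The missense changes were -0.442 ± 0.35 for Rps28 and -0.491 ± 0.382 for Rps29 (SE), smaller than the spread within the null set's wild types. Their null changes, -0.397 and -0.316, became 0.428 and 0.638 without wild type 1.

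Rps19, the gene most often mutated in Diamond-Blackfan anaemia, stood at 9.2 and 8.39 in the null-set wild types and at 8.41 and 8.64 in null. It stood at 8.46, 8.58 and 8.43 in the missense-set wild types and at 8.42, 8.18 and 8.54 in missense. Groups overlapped in both sets, with log2 changes of -0.27 ± 0.212 and -0.11 ± 0.173 (SE), the first of which was 0.135 without wild type 1. Rps15 and Rps18 were lower in every missense sample than in every wild type of the set, by 0.227 and 0.162 in the mean on the log2 scale, and their null samples overlapped with wild type. Among other head genes, Rps3, Rps10, Rps16, Rps20 and Rps27a (the last a fusion of ubiquitin with the ribosomal protein) had missense changes from -0.298 to -0.03, and Rps10 was the head gene above 0 in null, at 0.069.

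Over the 33 genes, 8 were lower in every missense sample than in every wild type of the set, against 4.89% of all genes. Among them were the head genes Rps15, Rps18 and Rps25, and Rps9 and Fau of the body. Fau, which is made as a fusion with a ubiquitin-like protein, was at 8.25, 8.3 and 8.24 in the wild types and at 8.05, 7.86 and 8.1 in missense. Its groups did not overlap, and the change was -0.259 ± 0.115 (SE, unadjusted p = 0.046, limma adjusted p = 0.896). In the null set 1 gene, Rps27rt, was lower in every mutant than in every wild type, against 14.8% of all genes.

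In the body and platform, 9 of 16 genes were below 0 in null (median -0.042), against 45.4% of all genes. In missense 12 of 16 were (median -0.092), against 46.0%. Rps21, a small protein of the body, was at 8.53 and 7.48 in the null-set wild types, 7.55 and 7.76 in null, 7.82, 7.83 and 7.6 in the missense-set wild types, and 7.94, 7.11 and 7.3 in missense. Missense 1 was the highest of its set and missense 2 the lowest, so the groups overlapped. The changes were -0.355 ± 0.311 in null (0.173 without wild type 1) and -0.3 ± 0.254 in missense (SE). Rps6, the substrate of the S6 kinases, was nearly level: 9.64 and 9.44 in wild type and 9.59 and 9.63 in null, and 9.37, 9.53 and 9.49 in wild type and 9.52, 9.32 and 9.56 in missense. The groups overlapped in both sets, and the 95% interval of the missense change of Rps6 ran from -0.188 to 0.191.

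Rps24 and Rps26, both mutated in Diamond-Blackfan anaemia, were among the 3 genes higher in both null samples than in both wild types, with Rps7, against 22.9% of all genes. Rps24 was at 8.89 and 8.97 in wild type and at 9.07 and 9.22 in null (log2 change 0.216 ± 0.132 SE, limma adjusted p = 0.738). Rps26, which lies at the mRNA exit channel, was at 9.09 and 9.03 in wild type and at 9.24 and 9.23 in null (0.176 ± 0.118 SE, limma adjusted p = 0.755). In the missense set the groups overlapped for both: Rps24 was at 9.14, 9.05 and 9.25 in wild type and 9.32, 8.87 and 9.12 in missense, and Rps26 at 9.12, 8.95 and 9.11 and at 9.19, 8.8 and 8.96. Rps2, at the mRNA entry channel, was at 10.27 and 9.81 in wild type and 9.9 and 9.98 in null, and at 9.76, 10.11 and 9.81 in wild type and 9.94, 9.96 and 10.01 in missense. Its groups overlapped in both sets.

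Rps13 and Rps15a had the largest positive changes of the members in missense, and they stood high in the same 4 samples. Rps13 encodes a protein that helps bridge the small to the large subunit. It was at 7.21 and 6.89 in the null-set wild types, 6.86 and 8.28 in null, 6.99, 7.06 and 7.02 in the missense-set wild types, and 8.05, 7.77 and 7.8 in missense. All 3 missense samples and null 2 lay above every wild type, while null 1 lay just below the lowest wild type of the null set. The log2 change of Rps13 was 0.846 ± 0.269 (SE, 1.80-fold, unadjusted p = 0.0095, limma adjusted p = 0.884) in missense and 0.515 ± 0.33 (adjusted p = 0.748) in null. The shared estimate of the spread for Rps13 takes in the gap between null 1 and null 2. With the samples of the missense set alone the adjusted p of the missense change was 0.032, and it was 0.047 without null 1 and 0.0432 without null 2. Without null 1 the null change was 1.22 with an adjusted p of 0.0229, and without null 2 it was -0.194.

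The near-identical pseudogene Rps13-ps1 did the opposite. It was at 7.72 and 7.31 in the null-set wild types, at 7.39 and -1.91 in null 1 and null 2, at 7.49, 7.45 and 7.48 in the missense-set wild types, and at -0.88, 0.05 and -3.16 in missense. The same 4 samples that were high in Rps13 were close to the floor in Rps13-ps1, and the other 6 were all above 7. Rps13-ps2 was at the floor in 8 samples and at 3.98 and 4.66 in missense 2 and missense 3. When the levels of Rps13, Rps13-ps1 and Rps13-ps2 were summed, the values were 8.49 and 8.11, 8.15 and 8.28, 8.27, 8.27 and 8.27, and 8.05, 7.87 and 7.96 in the same order of groups. The sum was no longer higher in the mutants: the summed change was -0.306 ± 0.0976 in missense and -0.09 ± 0.12 in null (SE). Every missense sum lay below every wild-type sum of its set (limma adjusted p = 0.884), while null and wild type overlapped. How reads were divided between the gene and its copies was not tested.

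Rps15a, a protein of the body, was at 8.09 and 7.78 in the null-set wild types, 7.82 and 8.74 in null, 8.01, 7.91 and 8.0 in the missense-set wild types, and 8.82, 8.4 and 8.51 in missense. As with Rps13, null 2 and all 3 missense samples lay above every wild type, and null 1 lay among the wild types. The log2 change was 0.605 ± 0.197 (SE, 1.52-fold, unadjusted p = 0.0108, limma adjusted p = 0.884) in missense and 0.343 ± 0.241 (adjusted p = 0.776) in null, where it was -0.115 without null 2. Of the 33 members, 2 were higher in every missense sample than in every wild type of the set: Rps13 and Rps15a. That share is close to the 6.02% of all genes. None of the 6 annotated copies of Rps15a was in the table, so no sum could be formed for it.

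**Figure D3:**
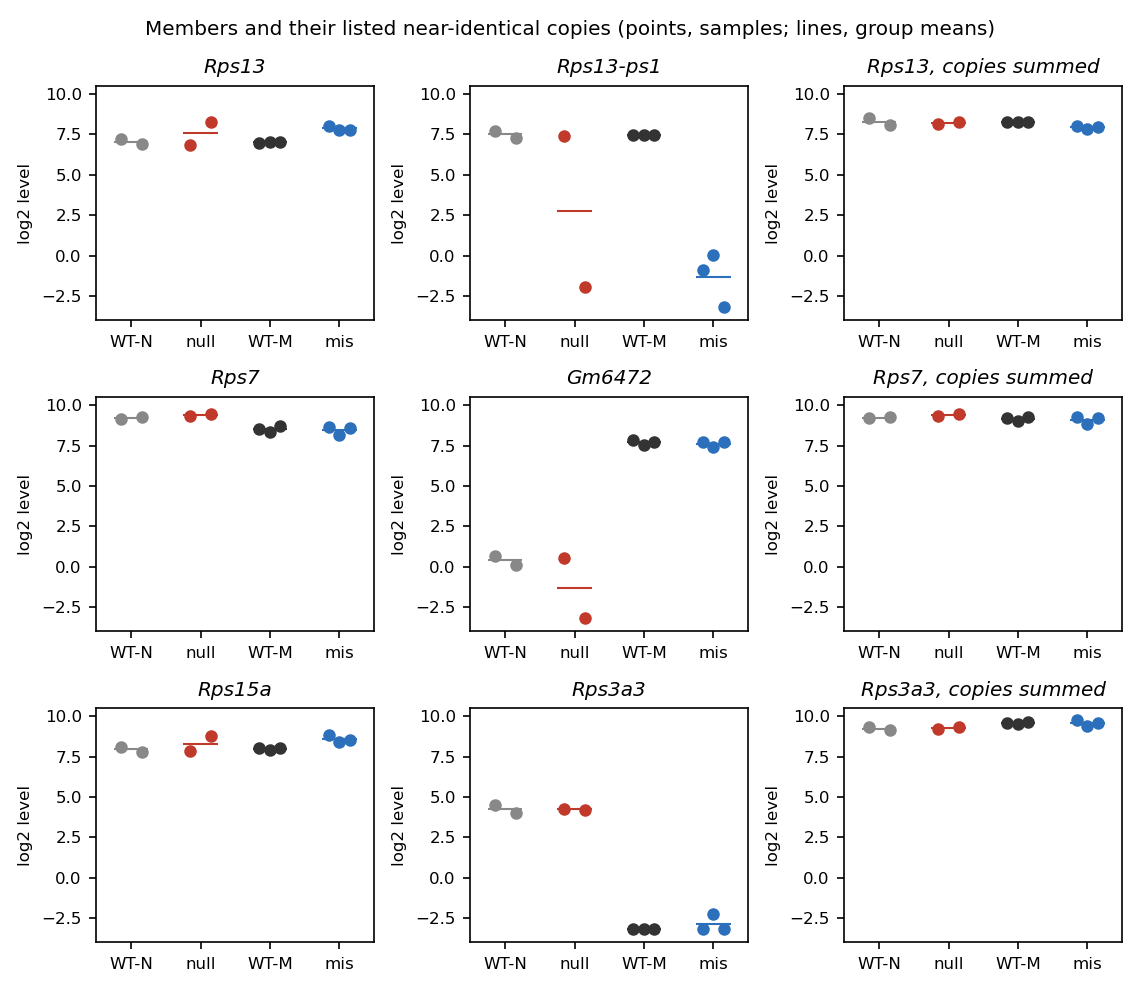
Log2 level (y axis) of Rps13, Rps7, Rps15a and Rps3a3, of the listed copies Rps13-ps1 and Gm6472, and of each gene summed with its listed copies, by group: wild type of the null set (WT-N), null, wild type of the missense set (WT-M) and missense (mis). Points are samples and lines group means. Rps13-ps1 drops to near the floor in null 2 and all missense samples, Gm6472 is high in the missense set alone, and the summed levels lie within 7.87 to 9.73 in all samples.

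Other members also had a copy whose level switched between samples. Rps2-ps10, a copy of Rps2, was between 6.78 and 7.43 in 6 samples and at 0.45 in wild type 2 of the missense set and -0.21, 0.71 and 0.78 in missense. Rps2 itself was highest of its set in that wild type, at 10.11. The sum of Rps2 with its listed copies was 9.97, 10.12 and 10 in wild type and 9.94, 9.96 and 10.02 in missense, and its missense change was -0.059, against 0.074 ± 0.12 (SE) for Rps2 alone. Rps16-ps2, which matched the Rps16 coding sequence in full, showed no such switch and ranged from 6.01 to 6.59.

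The paralogues were read beside their parent genes. The residual SD was 0.298 for Rps27, 0.247 for Rps27l and 1.349 for Rps27rt, and it was 0.093 for Rps4x and 0.219 for Rps4l. Rps27, a zinc-finger protein of the platform, was at 8.67 and 8.01 in the null-set wild types, 8.17 and 8.34 in null, 8.23, 8.26 and 8.2 in the missense-set wild types, and 8.34, 7.65 and 7.68 in missense. Missense 2 and 3 lay below all wild types of their set and missense 1 above them, and the change was -0.339 ± 0.191 (SE, limma adjusted p = 0.902). Rps27l, its paralogue and a known p53 target, was at 6.29 and 5.86, 6.15 and 6.26, 6.03, 5.9 and 6.05, and 6.41, 5.86 and 5.75 in the same order, with groups that overlapped in both sets. Its changes were 0.132 ± 0.209 in null (-0.087 without wild type 2) and 0.01 ± 0.17 in missense (-0.193 without missense 1 and -0.035 without wild type 2 of that set). Of 14 other p53 targets, 10 were higher in null and 13 in missense, with medians of 0.354 and 0.518. Of the 14, 1 rose past the adjusted test in missense, Eda2r, a receptor gene, against 0.0203% of all genes. In null 0 did, against 0.162%. At an unadjusted p under 0.05 (limma), 6 were higher in null and 8 in missense. Of all genes, 8.32% and 5.54% stood there, in either direction. With pseudogenes and predicted models left out, no gene was called higher in missense, so Eda2r was not called. Eda2r was at 1.71, 1.59 and 0.5 in wild type and at 4.01, 3.83 and 3.86 in missense, with no overlap (2.63 ± 0.341 SE, limma adjusted p = 0.0499).

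Rps27rt was low and scattered, at 2.55 and 1.82 in the null-set wild types, 0.15 and 0.96 in null, -0.29, 2.79 and 1.57 in the missense-set wild types, and 1.3, 1.57 and -1.43 in missense. The null samples lay below both wild types, and the missense samples overlapped with theirs. The changes were -1.63 ± 1.08 and -0.874 ± 0.879 (SE), the widest errors of the 33, and the second was 0.081 without missense 3. Since its coding sequence is that of Rps27, its reads cannot be told apart from those of Rps27 over that stretch. Rps4x, encoded on the X chromosome, was steady at 9.79 and 9.65, 9.74 and 9.82, 9.72, 9.71 and 9.8, and 9.82, 9.56 and 9.71. Rps4l, its retroposed relative, was at 5.16 and 5.2, 5.28 and 5.09, 5.25, 4.79 and 5.5, and 5.12, 5.26 and 5.26. For both genes the groups overlapped and the log2 change was smaller than its SE in either mutant.

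The change in missense and the change in null were compared directly by their difference in the same model. No member differed at an adjusted p of 0.05 (0 of 33, against 0.0135% of all genes), and 0 did at an unadjusted p under 0.05. The difference ran from -0.26 ± 0.17 for Rps24, -0.255 ± 0.302 for Rps27 and -0.25 ± 0.152 for Rps26 to 0.319 ± 0.799 for Rps3a3, 0.331 ± 0.426 for Rps13 and 0.759 ± 1.39 for Rps27rt (SE). The 95% interval of the Rps13 difference ran from -0.608 to 1.269, so it holds an equal change in both alleles as well as a larger one in either.

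The wild types of the 2 sets differed from each other in 1 member, against 0.0946% of all genes. Rps3a3, a copy of Rps3a1, was at 4.48 and 4.01 in the wild types and 4.26 and 4.21 in the null samples of the null set. In the missense set it was at the floor of -3.16 in all wild types and at -3.16, -2.22 and -3.16 in missense. The groups followed the set and not the genotype (log2 difference between wild types, limma adjusted p = 0.000205, with 1 side at the floor, so no fold is given). Rps3a1, the parent gene that encodes the body protein, lay the other way round, at 8.75 and 8.53 in the null-set wild types and 9.59, 9.54 and 9.66 in those of the missense set. Another copy, Rps3a2, was at 7.56 and 7.49 and at -2.49, -1.49 and -2.37 in these wild types. The sum of the 3 was 9.32 and 9.14 against 9.6, 9.54 and 9.66, and Rps3a3 was no longer called once its copies were summed with it.

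Rps7, a body protein needed for the cutting of the 18S precursor, also went with the set. It was at 9.17 and 9.27 in the null-set wild types and 9.34 and 9.43 in null, and at 8.51, 8.33 and 8.68 in the missense-set wild types and 8.67, 8.18 and 8.57 in missense. The sets did not overlap, and the wild types differed by -0.717 ± 0.142 (SE, unadjusted p = 0.00039, limma adjusted p = 0.231). Its copy Gm6472 was at 0.67 and 0.12 in wild type and 0.53 and -3.16 in null, and at 7.82, 7.56 and 7.71 in wild type and 7.7, 7.39 and 7.72 in missense. Gm6472 was thus high in the set in which Rps7 was low. Their sum was 9.18 and 9.27, 9.34 and 9.43, 9.2, 8.99 and 9.27, and 9.27, 8.84 and 9.21, and overlapped between the wild types of the 2 sets.

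Short genes differed most between the wild types of the null set. Wild type 1 was above wild type 2 in 29 of 33 genes, against 48.6% of all genes. Among 31 members with a coding length (the 2 pseudogenes left out), the 6 with fewer than 300 coding bases had a median difference of 0.89, and the others one of 0.4. Across the 31 genes, which come from the same pair of libraries and are not independent, coding length and the difference had a Spearman correlation of -0.54 and a Pearson correlation of -0.55. Over all genes the 234 with fewer than 300 coding bases had a median difference of 0.32, against -0.01 over all 13890 with a length. Erythroid markers summed to 13.07 in wild type 1 and 12.4 in wild type 2, with median deviations of 0.335 and -0.335. The erythroid sums were 12.86 and 13.11 in null, where the members' median deviations were -0.147 and 0.007. They were 12.82, 13.05 and 12.82 in the missense-set wild types, with the members at -0.011, 0.018 and 0.0. In missense the sums were 13.03, 12.75 and 12.91, with the members at -0.008, -0.276 and -0.1, the same order of samples. The median erythroid deviations in missense were 0.221, 0.19 and 0.172. Over all samples the erythroid sum was highest in null 2, and the members' median in wild type 1 of the null set. The part of coding length or of erythroid cells in these differences was not tested.

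**Figure D4:**
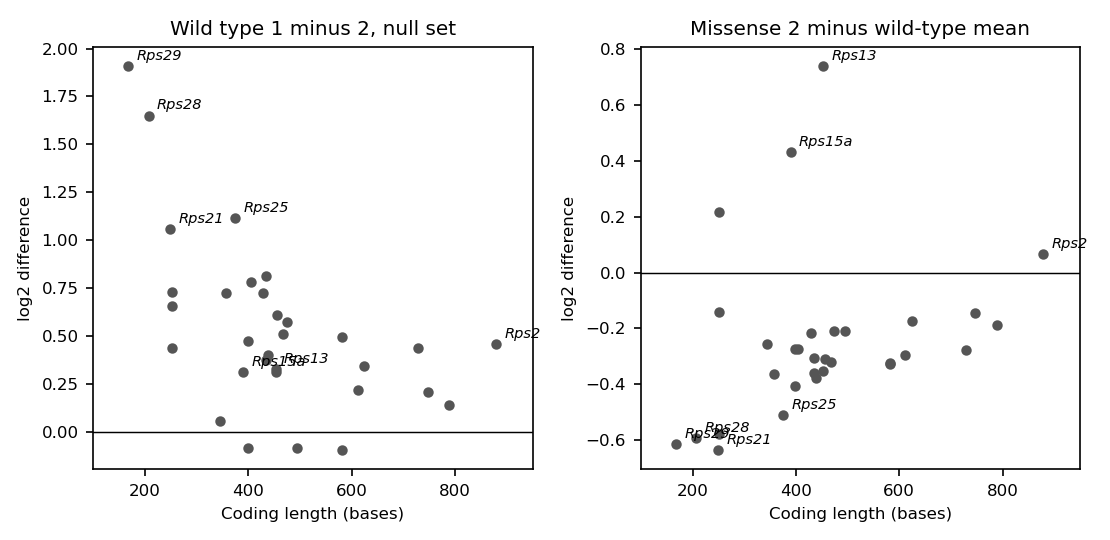
Coding length in bases (x axis) against the log2 difference of wild type 1 minus wild type 2 of the null set (left) and of missense 2 minus the wild-type mean of its set (right), 1 point per gene, 31 genes. The 2 shortest genes, Rps29 and Rps28, lie highest on the left, followed by Rps25 and Rps21, and among the lowest on the right, while Rps13 and Rps15a lie highest on the right.

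Other genes of the ribosome pathway were read from lists of known members. The 51 large-subunit genes showed the same order of samples: their median deviation was 0.238 and -0.238 in the null-set wild types, -0.151 and 0.031 in null, 0.002, 0.025 and -0.013 in the missense-set wild types, and -0.061, -0.297 and -0.119 in missense. Of these, 33 were below 0 in null (median -0.049) and 43 in missense (median -0.146). In null 1 of the 51 was called, against 0.162% of all genes. It was Rpl15 (0.742, limma adjusted p = 0.0277), at 8.7 and 8.56 in wild type and 9.27 and 9.48 in null. The missense-set wild types were near the null level, at 9.38, 9.38 and 9.37. The wild types of the 2 sets thus differed by 0.748 (limma adjusted p = 0.0151). In missense 1 of the 51 was called, against 0.0203% of all genes. It was Rpl34, at 7.71, 7.6 and 7.86 in wild type and at 4.19, 3.53 and 4.16 in missense. Near-identical copies were searched for the 33 small-subunit members only. The part of copies in the Rpl15 and Rpl34 values was not tested. The 33 small-subunit genes together made up 1.08% to 1.55% of the total level and the large-subunit genes 1.74% to 2.43%, both lowest in missense 2 and highest in wild type 1 of the null set.

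Genes that share the TOP start or the assembly pathway but encode no ribosomal protein stayed near 0 in their list medians. Of 17 other TOP mRNAs, mostly translation factors, 4 were below 0 in null (median 0.074) and 10 in missense (median -0.003), and 0 were called in either. At an unadjusted p under 0.05, 1 of the 17 was lower in missense, against 5.54% of all genes in either direction. It was Nap1l1 (-0.546, limma unadjusted p = 0.0158). Nap1l1 was at 7.51 and 6.92 in the null-set wild types and 7.12, 7.0 and 6.74 in those of the missense set. It was at 6.89 and 6.86 in null and at 6.79, 6.35 and 6.08 in missense. Of 52 factors that assemble the small subunit, 23 were below 0 in null (median 0.022) and 20 in missense (median 0.029), with 0 called. At an unadjusted p under 0.05, 1 of the 52 assembly factors was higher in null (Utp6), against 8.32% of all genes in either direction. In missense 2 of the 52 were higher and 1 lower, against 5.54%. Their sample medians ranged from -0.007 to 0.048, and those of the other TOP mRNAs from -0.019 to 0.089, so neither list followed wild type 1 of the null set or missense 2. Of the small-subunit proteins outside the symbol rule, Rpsa, at the mRNA exit, was at 8.75 and 8.86 in the null-set wild types and at 9.65, 9.51 and 9.93 in those of the missense set (0.89, limma adjusted p = 0.0151). A pseudogene, Rpsa-ps10, was measured, but Rpsa was not searched for copies, and their part in this difference was not tested. The changes of Rpsa with the genotype were 0.067 in null and -0.033 in missense, and those of Rps3a1 were 0.026 and -0.03, none past the adjusted test (limma).

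**Figure D5:**
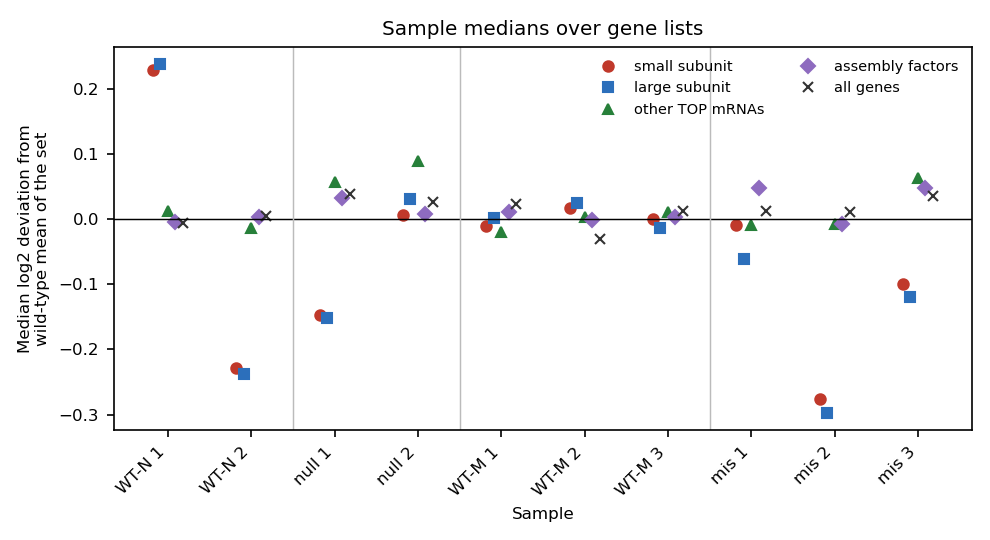
Median log2 deviation from the wild-type mean of the set (y axis) in each sample (x axis) for 5 lists: small-subunit genes, large-subunit genes, other TOP mRNAs, assembly factors and all genes. The 2 ribosomal protein lists move together, from 0.229 and 0.238 in wild type 1 of the null set to -0.276 and -0.297 in missense 2, while the other 3 lists stay within 0.1 of 0.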

How the data were processed

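RNA sequencing of total RNA from 10 telencephalon samples was used. The deposited table holds log2 values, filtered and normalized by the authors according to its title. Back-transformed, each sample sums to 1000571 to 1000994, as for log2 CPM with an offset, and depth is not recoverable. The build is GRCm39, per the submitters' processing notes. The aligner, the counter and the gene annotation of the authors: not given in the sources used here. Of 14797 rows, the single row without a name, at most 0.015% of a sample's total, was left out.

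A model with 4 groups (genotype within title set) was fitted to 14796 genes in R 4.3.3 (limma 3.58.1, version 1.17.8 of data.table), with a variance trend, 6 residual and 4.83 prior degrees of freedom, 2-sided tests and Benjamini-Hochberg adjustment. A gene was called at an adjusted p under 0.05. The fit was tested on simulated data. Correlations between samples were 0.938 to 0.964, with no duplicate. Copies were found with blastn 2.17.0, at 95% identity over 80% of the coding sequence. Levels are not per length, so they were not ranked between genes. Summaries and figures used Python 3.11.15, pandas 2.3.3, numpy 2.4.6, scipy 1.17.1 and matplotlib 3.10.9.

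The members and lists were chosen with earlier results of these data known. Genes named with values in every sample were those called in any contrast, up to 4 in each direction with the largest change in each mutant, up to 3 for the difference, and the paralogue sets with Rps6, Rps19, Rps24 and Rps26. Fau, Rps7 and the near-identical copies were given values in every sample after their values were seen. Of the other lists, up to 3 of smallest p were eligible. Alternatives were 12 other scalings, filters and models, leaving out each of 10 samples, and, added after the data were seen, summing with near-identical copies. The values of 4 members enter the counts and medians but are not reported here.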

Additional observations from a re-analysis of the deposited data

How the results depend on the processing

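No member was called in the difference under the 22 alternatives that give it (own set alone does not), and over 23 alternatives the missense median stayed between -0.177 and -0.077 with 20 to 29 of 33 genes lower. The null median and the number of lower genes ranged from -0.28 to 0.173 and from 3 to 26 when 1 sample was left out. A lone sample left in a group was assumed to have the spread of the other groups. Genes called in null were 59 without a title set term, 6 without a trend, 0 with the samples of its own set, and 2 to 23 with 1 sample left out. In missense they were 1 without pseudogenes and predicted models, a fit on fewer genes, and 2 to 10 with 1 sample left out. For the difference they were 9 without a title set term, 1 after median-centring, 0 without a trend and 1 to 10 with 1 sample left out. Between wild types they were 8 with the low-value filter, 6 without pseudogenes and predicted models, and 7 to 21 with 1 sample left out. Members called were 0 to 1 in null and 0 to 1 in missense with 1 sample left out, 1 in missense with its own set alone (Rps13), and 0 between wild types with the low-value filter, which removes Rps3a3, or with copies summed.

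Some changes turned sign. In null these were Rps3a3 (4.436 without a title set term, 0.041 with copies summed), Rps4l (-0.024 median-centred, -0.013 quantile-normalized) and Rps13 (-0.09 with pseudogenes or copies summed). In missense they were Rps24 (0.042), Rps3a3 (-2.648), Rps27l (-0.021) and Rps6 (-0.028) without a title set term, Rps27l (-0.015) and Rps6 (-0.024) median-centred, Rps27l (-0.001) quantile-normalized, Rps4l (-0.052) with sample weights, and Rps6 (-0.003) rescaled without ribosomal protein genes. Summing turned Rps13 (-0.306 with either), Rps2 (-0.058 with pseudogenes, -0.059 with copies) and Rps3a3 (-0.03) in missense, and Rps3a3 between wild types (0.366). With 1 sample left out, null changes ran from -0.194 to 1.224 for Rps13, -0.115 to 0.802 for Rps15a, -0.676 to 0.135 for Rps19, -0.327 to 0.13 for Rps2, -0.883 to 0.173 for Rps21, -0.412 to 0.245 for Rps27, -0.087 to 0.351 for Rps27l, -1.222 to 0.428 for Rps28, -1.27 to 0.638 for Rps29, -0.244 to 0.232 for Rps3a3, -0.086 to 0.106 for Rps4l, -0.002 to 0.134 for Rps4x and -0.028 to 0.176 for Rps6. Missense changes ran from -0.153 to 0.071 for Rps24, -0.177 to 0.017 for Rps26, -0.193 to 0.138 for Rps27l, -1.697 to 0.081 for Rps27rt, -0.161 to 0.192 for Rps4l, -0.109 to 0.023 for Rps4x, -0.047 to 0.074 for Rps6 and -0.127 to 0.119 for Rps7. Apart from the fits on fewer genes or samples and the sums, the cause was not tested. No paired analysis was possible because no title number is shared between a mutant and the wild types of its set.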

Other observations

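Rps13 and Rps15a lie on the same chromosome, as do other members such as Rps3, Rps9, Rps16 and Rps19, which were below 0 in missense. In the gene order of GRCm38.p6, 18 genes are listed between Rps13 and Rps15a, of which 3 were measured. These genes were looked up after the values of Rps13 and Rps15a were seen. Pik3c2a, a lipid kinase gene, had a missense change of 0.169 and a null change of 0.085. Xylt1, which starts glycosaminoglycan chains, had changes of 0.181 and 0.237, and Nucb2, which encodes a calcium-binding protein, had changes of -0.216 and 0.243. All 3 were smaller in size than 0.846 and 0.605, the missense changes of Rps13 and Rps15a. None of the 3 passed the adjusted test (limma) in null or missense. The missense change of Rps13 was -0.306 once its copies were summed with it, and no annotated copy of Rps15a was measured. The part of chromosomal position in these changes was not tested.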
